A study of Mus musculus with 10 samples.

Results

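The cytosolic ribosomal protein genes are described here in cerebral cortex of female 5XFAD mice with and without neuronal deletion of Idol. They were chosen by name alone, as protein-coding mouse genes whose symbol is Rps or Rpl followed by a number, with Rpsa and the P-stalk genes Rplp0, Rplp1 and Rplp2. Of the 53700 gene identifiers in the deposited counts, 85 met this rule and 82 of these had a total count over 10, among 19268 genes that did. They comprise 33 genes of the small (40S) subunit and 49 genes of the large (60S) subunit. The 3 genes outside the filter were Rpl3l, with 5 reads over all libraries, and Rpl10l and Rpl39l, with 1 read each. The lowest count inside the filter was that of Rpl24, with 87 reads. A further 5 genes with matching symbols are annotated as pseudogenes and were left out.

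The experiment compared 5 cortices labelled 5XFAD; Idol; Camk2a-cre cKO, called 5XFAD;Neu cKO below, with 5 labelled 5XFAD; Idol; Camk2a-cre WT, called 5XFAD below, all at 4 months of age. The mice of both groups carry the 5XFAD transgenes, which encode human amyloid precursor protein and presenilin with mutations of familial Alzheimer's disease, and received no treatment according to the sources used here. Idol, whose gene symbol is Mylip, encodes a ubiquitin ligase that marks lipoprotein receptors for degradation. Camk2a-Cre is active mainly in forebrain excitatory neurons, whereas the RNA came from whole cortex with all of its cell types. The controls are described as littermates, and neither their Idol and Cre alleles nor the strain background are given in full. Libraries were made with a QuantSeq kit, which reads the 3′ end of polyadenylated RNA, and counts are not divided by transcript length here. Levels are given as CPM, the reads on a gene scaled to a common library size. Levels of different members may be subject to the copies of their sequence described below.

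A cytosolic ribosome is built from a small subunit, which decodes the mRNA, and a large subunit, which joins amino acids. Nearly every ribosomal protein is present in equal number in each ribosome, and their genes are expressed in all cells. Most of their mRNAs begin with a C followed by a run of pyrimidines, the TOP motif, through which the mTORC1 pathway controls their translation. Ribosomal protein genes have also left many processed pseudogenes in mammalian genomes, to which short reads can align as well as to the gene itself.

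The motif is shown at annotated starts because it is the sequence that many of these mRNAs share. RefSeq starts could be placed by an exact match in GRCm39 for 61 of the 82 genes. Of these, 13 (21.3%) had at least one start at which C was followed by 4 or more C or T letters. Of all 27025 genes in the same table, counted without such placement, 813 (3.01%) had one. Among the 13 members, 10 had a log2 fold change below 0 and 3 above 0. The windows below hold 10 bases before and 20 bases from the start, 5′ to 3′ on the strand of the gene, with the uninterrupted run of pyrimidines from the start in capitals. Rpl38, Rpl14 and Rps15a are among the 10 members with the smallest p, and Rpl15 and Rps6 had log2 fold changes in the opposite direction. Sequences are from RefSeq (GRCm38.p6 table) and were placed by an exact match in GRCm39. The starts of other members, Rps14 and Rplp1 included, are not given here.
Rpl38, chr11:114559396-114559425, plus strand: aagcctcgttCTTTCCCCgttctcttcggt
Rpl14, chr9:120400573-120400602, plus strand: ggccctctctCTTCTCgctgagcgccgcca
Rps15a, chr7:117715351-117715380, minus strand: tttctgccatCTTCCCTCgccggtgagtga
Rpl15, chr14:4198700-4198729, plus strand: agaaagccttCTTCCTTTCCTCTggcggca
Rps6, chr4:86775585-86775614, minus strand: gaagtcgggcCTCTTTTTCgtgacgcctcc
The longest of these runs, 13 bases, was at Rpl15, and the shortest, 6 bases, at Rpl14. A window without such a run says only that the letters are absent at that annotated start.

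Each library held 4320504 to 7466192 reads on genes, of which the 82 ribosomal protein genes took 1.26% to 1.48%. Mylip, the targeted gene, was counted 45 to 108 times in 5XFAD libraries and 50 to 148 times in 5XFAD;Neu cKO libraries, with a log2 fold change of 0.39 ± 0.25 (SE, edgeR's quasi-likelihood test, adjusted p = 0.777, n = 5 per group). The labels are thus not borne out by the 3′ counts of this gene, which cannot decide whether it was deleted. Whether its 3′ reads lie in the deleted exons is not given in the sources used here, and groups are named below as labelled. The labels name no batch that separates libraries, but reads that fell on either mt-Nd3 or the nuclear copy Gm28438 divided them. In 5XFAD replicate 2 and 5XFAD;Neu cKO replicates 1, 3, 4 and 5 at least 88.1% of these reads were assigned to mt-Nd3, and in the other 5 libraries at most 2.39%. Markers of other cell types moved with the labels as well. The 20 microglia markers were all lower in 5XFAD;Neu cKO libraries, 7 of them past the threshold, with sums of 597 to 871 CPM against 416 to 518 CPM. All 12 oligodendrocyte markers were lower, 1 of them past the threshold, with sums of 2159 to 3147 against 1900 to 2980 CPM, and the 5 haemoglobin and red cell genes were higher, 2 of them past the threshold, with sums of 6.34 to 51.4 against 46.9 to 211 CPM. Of 12 astrocyte markers, 10 were lower, with Gfap past the threshold (log2 fold change -0.88, edgeR, adjusted p = 0.00202) and overlapping sums of 5792 to 6862 against 5846 to 6438 CPM. Of 6 nuclear long noncoding RNAs, 5 had a log2 fold change above 0 and none passed the threshold. The 10 excitatory neuron markers were detected in every library, with sums of 4240 to 5160 and 4117 to 4691 CPM. In bulk tissue, fewer cells of a type and less RNA per cell cannot be told apart, and the part of these shifts in the values that follow was not tested.

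More ribosomal protein genes lay below 0 than above it, by small amounts. Of the 82 genes, 65 had a log2 fold change below 0 and 17 above 0, with a median of -0.12, while the 19268 genes tested had a median of 0.00 and 50.1% of them below 0. One member, Rps14, passed an adjusted p of 0.05 (edgeR), against 0.218% of all genes tested. At an unadjusted p under 0.05, 22 members were lower, against 4.01% of all genes tested, and 2 members were higher, against 3.94%. The groups did not overlap, all 5XFAD;Neu cKO libraries lying below all 5XFAD libraries, for 3 members, Rps14, Rps12 and Rplp1, against 0.721% of all genes tested. Members are counted in the same libraries and are not independent of each other. The median standard error of a log2 fold change was 0.10 for members and 0.31 for all genes.

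**Figure D1:**
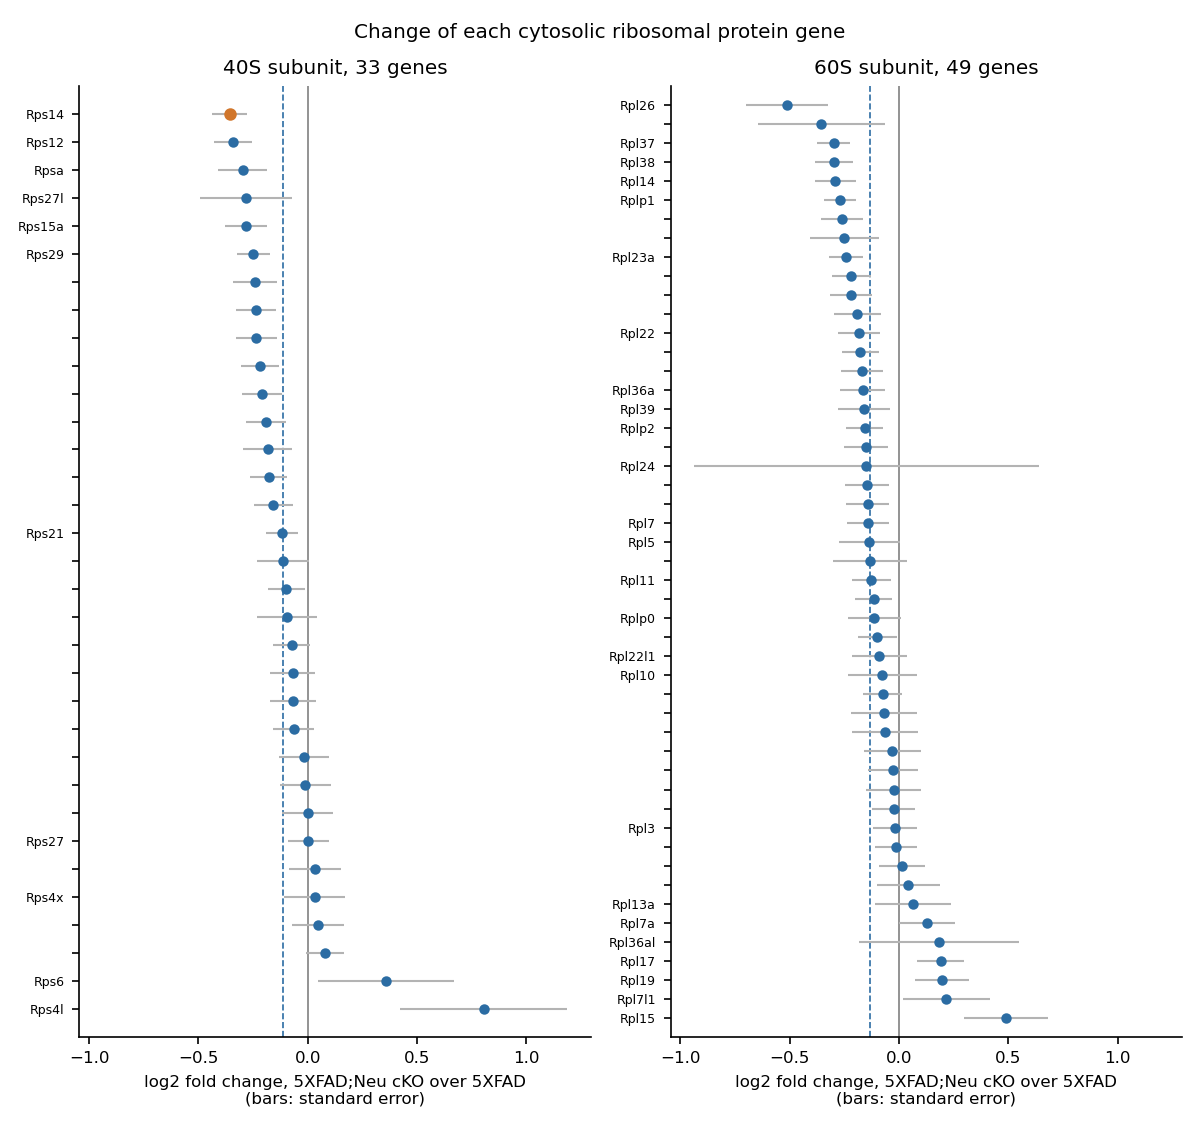
Log2 fold change of each ribosomal protein gene (x axis, 5XFAD;Neu cKO over 5XFAD, edgeR) with its standard error, for 33 genes of the 40S subunit (left) and 49 of the 60S subunit (right); the dashed line is the median of the subunit, and the genes named by rule are labelled. Most points lie left of 0, and Rps14, in orange, is the one past an adjusted p of 0.05.

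The size of the member median, but not its sign, depended on how libraries were scaled. With TMM, a scaling that centres most genes, the member median was -0.12, and with DESeq2's size factors it was also -0.12. With total counts alone, the member median was -0.03 and 48 of 82 members were below 0, but the median of all genes then rose to 0.09, so that members stood 0.12 below all genes in either case. The number of members below the median of all genes was 65 under each of these 3 scalings. The median also depended on single libraries: without 5XFAD replicate 1 it was -0.07, with 58 members below 0, and without 5XFAD replicate 5 it was -0.17, with 71 below 0. With the assignment of mt-Nd3 reads as a term in the fit it was -0.17, with 64 members below 0.

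Libraries of one group differed among themselves. The summed level of the 82 genes was 15580, 16050, 13680, 13660 and 12640 CPM in 5XFAD replicates 1 to 5. It was 13740, 13160, 12300, 12400 and 11990 CPM in 5XFAD;Neu cKO replicates 1 to 5. The 5XFAD replicates 1 and 2 stood above all other libraries, 5XFAD replicates 3, 4 and 5 lay within the range of the 5XFAD;Neu cKO libraries, and the groups overlapped. By members rather than sums, 75, 66, 46, 48 and 15 of the 82 genes lay above their own mean over all libraries in the 5XFAD libraries, taken from replicate 1 to 5. In the 5XFAD;Neu cKO libraries 45, 38, 28, 17 and 16 did, so that 5XFAD replicate 5 was as low as the lowest of these. Among the libraries with reads on mt-Nd3, 5XFAD replicate 2 had 16050 CPM and the 4 from 5XFAD;Neu cKO 11990 to 13740 CPM. Among those with reads on Gm28438, the 4 from 5XFAD had 12640 to 15580 CPM and 5XFAD;Neu cKO replicate 2 had 13160 CPM, within their range. Each set held 1 library of one group, so no test was made within it. The 5XFAD replicates 1 and 2 also had the highest summed microglia markers, 871 and 863 CPM. Nuclear long noncoding RNAs, summed over 6 genes, were at 13010, 11810, 12750, 13710 and 19020 CPM in the 5XFAD libraries from replicate 1 to 5. The 5XFAD;Neu cKO libraries had 12910, 17020, 15090, 17340 and 16650 CPM in the same order. The library with the highest member sum, 5XFAD replicate 2, was thus the lowest in these RNAs and in the share of reads on no gene (31.3%), while 5XFAD replicate 5, the lowest of its group in members, was the highest of all in both (39.9% of reads on no gene). Other libraries did not follow this order: 5XFAD;Neu cKO replicate 5, the lowest of all in members, had 35.5% of reads on no gene. In 5XFAD;Neu cKO replicate 2, with 13160 CPM, the share was 38.2%. The part of these values in the members' levels was not tested.

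**Figure D2:**
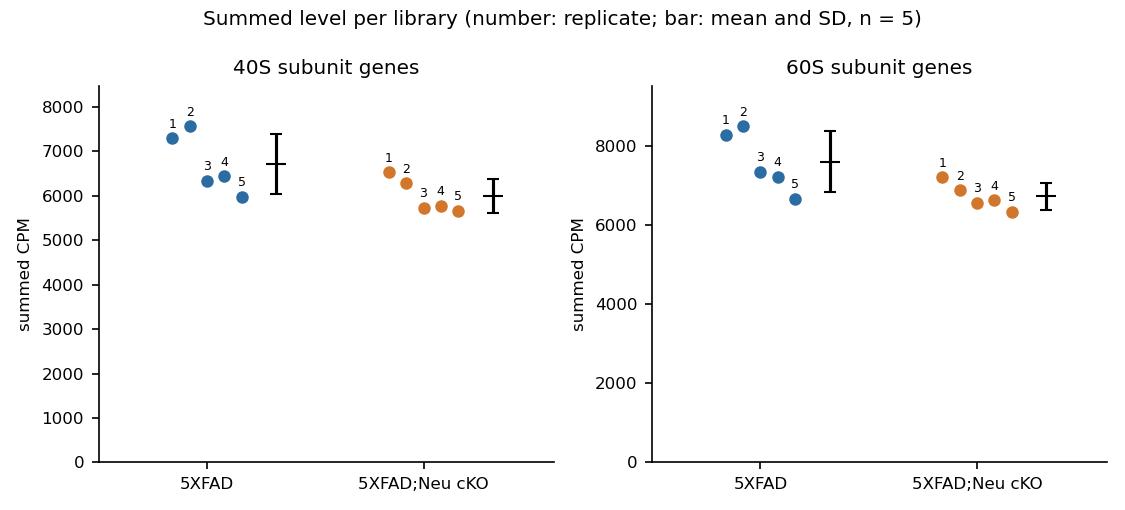
Summed CPM (y axis, from 0) of the 40S genes (left) and the 60S genes (right) in each library, numbered by replicate, with the mean and SD of 5 libraries per group. The 5XFAD replicates 1 and 2 are the highest in both panels, and the groups overlap.

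The medians of both subunits were close to each other. The 33 genes of the 40S subunit had a median log2 fold change of -0.11, with 25 below 0, and the 49 genes of the 60S subunit a median of -0.13, with 40 below 0. Without 5XFAD replicate 2 the 40S median was -0.07, and without 5XFAD replicate 1 the 60S median was -0.07. The summed 40S level was 6724 ± 675 CPM in 5XFAD and 5997 ± 385 CPM in 5XFAD;Neu cKO cortices (SD, n = 5), and the summed 60S level was 7597 ± 766 and 6721 ± 336 CPM. The ratio of 40S to 60S reads was 0.885 ± 0.0133 in 5XFAD and 0.892 ± 0.0183 in 5XFAD;Neu cKO libraries (SD, n = 5), a difference within the spread between libraries. The ratio ranged from 0.864 to 0.897 in 5XFAD and from 0.873 to 0.913 in 5XFAD;Neu cKO libraries.

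Among the 40S genes, Rps14, which sits on the platform of the small subunit near the exit of the mRNA, fell in 5XFAD;Neu cKO cortices. Its levels were 649, 813, 591, 609 and 652 CPM in 5XFAD replicates 1 to 5 and 567, 567, 451, 530 and 472 CPM in 5XFAD;Neu cKO replicates 1 to 5. No 5XFAD;Neu cKO library reached the lowest 5XFAD library, and 5XFAD replicate 2 was the highest. The mean fell from 663 ± 88.1 to 517 ± 53.9 CPM (SD, n = 5), a log2 fold change of -0.36 ± 0.081 (SE, edgeR's quasi-likelihood test, adjusted p = 0.0283). The log2 fold change was between -0.41 and -0.27 under all 20 alternatives, of which 14 kept the adjusted p under the threshold. The call was lost with total counts without TMM, with filterByExpr, and without 5XFAD replicate 2 or 5XFAD;Neu cKO replicate 3, 4 or 5 (adjusted p = 0.0686 to 0.231), the highest adjusted p being without 5XFAD replicate 2. In 27.9% of the 50-base windows at its coding end an identical sequence lay elsewhere in the genome.

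Rps12, a small protein of the head of the 40S subunit, had the next smallest p of the 40S genes. It was counted at 262, 259, 247, 223 and 221 CPM in 5XFAD replicates and at 208, 218, 178, 184 and 167 CPM in 5XFAD;Neu cKO replicates, again without overlap. The log2 fold change was -0.34 ± 0.088 (SE), which did not pass the threshold with edgeR (adjusted p = 0.0844) and did with DESeq2 (adjusted p = 0.0126). Every window at its coding end occurred elsewhere in the genome. The sequence after the coding end was not searched, and the part of reads with several places in its counts was not tested.

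Other 40S genes with small p were Rps29, the small zinc-binding protein of the subunit's head, and Rps15a, a protein of its body. Rps29 was at 881 ± 79.9 CPM in 5XFAD and 742 ± 85 CPM in 5XFAD;Neu cKO cortices (SD, n = 5), a log2 fold change of -0.25 (edgeR, adjusted p = 0.248). Rps15a was at 135 ± 12.2 and 111 ± 9.04 CPM, a log2 fold change of -0.28 (edgeR, adjusted p = 0.349). Rpsa, which forms part of the 40S subunit and is also known as a laminin receptor, was at 106 ± 20.2 and 86.5 ± 9.86 CPM, a log2 fold change of -0.30 (edgeR, adjusted p = 0.439). In contrast, Rps21, one of the most counted members, was at 851 ± 92.4 and 786 ± 43.7 CPM with a log2 fold change of -0.12 (edgeR, adjusted p = 0.779). Rps27 was at 260 ± 45.1 and 261 ± 31.2 CPM, a log2 fold change of 0.00 (edgeR, adjusted p = 0.998).

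Rps6, whose protein is the substrate of the S6 kinases and a common readout of mTORC1 activity, was counted sparsely. It had 13.8, 4.22, 7.2, 11.2 and 3.37 CPM in 5XFAD replicates and 8.04, 14.9, 9.85, 8.41 and 10.2 CPM in 5XFAD;Neu cKO replicates. These groups overlapped throughout, with a log2 fold change of 0.36 ± 0.31 (SE, edgeR, adjusted p = 0.871). All windows at its coding end occurred elsewhere in the genome. It had 537 reads in all, and its standard error was near the size of its log2 fold change.

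Among the 60S genes, Rpl37, a small zinc-binding protein of the large subunit, had the smallest p. Its levels were 900, 976, 829, 801 and 768 CPM in 5XFAD replicates and 783, 699, 670, 708 and 613 CPM in 5XFAD;Neu cKO replicates. Only 5XFAD;Neu cKO replicate 1 reached the range of the 5XFAD libraries. The log2 fold change of -0.30 ± 0.075 (SE) had an adjusted p of 0.0700 with edgeR and 0.0103 with DESeq2. Rpl38, a protein known for its role in the translation of Hox mRNAs, was at 286, 300, 238, 250 and 231 CPM in 5XFAD replicates and at 234, 215, 214, 210 and 189 CPM in 5XFAD;Neu cKO replicates, with 1 library of the latter within the range of the former. Its log2 fold change was -0.30 ± 0.087 (SE), with an adjusted p of 0.212 with edgeR and 0.0481 with DESeq2. In all, DESeq2 called 5 members, Rps14, Rps12, Rpl37, Rplp1 and Rpl38, all lower, against 0.379% of all genes past the count filter. DESeq2 gave some of those genes no adjusted p, Rpl15 and Rps6 among them. The share among genes that could be called is therefore higher than this.

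The next 60S genes by p were Rpl23a and Rpl14. Rpl23a, which lies at the exit of the peptide tunnel, was at 643 ± 63.7 CPM in 5XFAD and 543 ± 44.1 CPM in 5XFAD;Neu cKO cortices (SD, n = 5), a log2 fold change of -0.24 (edgeR, adjusted p = 0.267). Rpl14 was at 170 ± 16.8 and 139 ± 14.1 CPM, a log2 fold change of -0.29 (edgeR, adjusted p = 0.284). Rpl5 and Rpl11, which with 5S rRNA form a particle that binds Mdm2 when ribosome assembly fails, had log2 fold changes of -0.14 and -0.13 and adjusted p of 0.905 and 0.822 (edgeR). For Rpl5 the value was -0.26 without 5XFAD replicate 5 and -0.06 without 5XFAD;Neu cKO replicate 3.

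**Figure D3:**
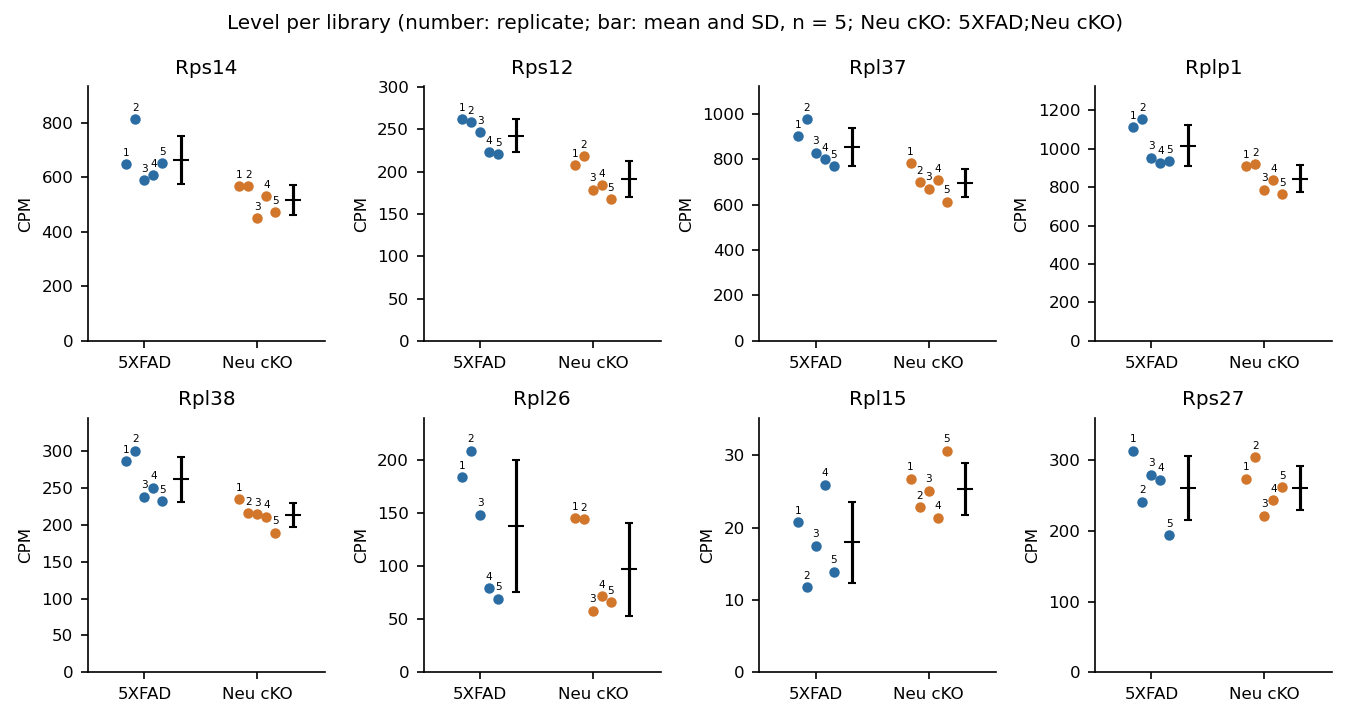
CPM (y axes, from 0) of 8 ribosomal protein genes in each library, numbered by replicate, with the mean and SD of 5 libraries per group. Rps14, Rps12 and Rplp1 do not overlap between groups, Rpl26 splits into high and low libraries within each group, and Rps27 lies at the same level in both.

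Rpl26, a 60S protein that also binds the p53 mRNA, had the lowest log2 fold change of all members and a wide spread. It was at 184, 209, 149, 79.4 and 69.6 CPM in 5XFAD replicates 1 to 5 and at 145, 144, 58.2, 72.2 and 66.1 CPM in 5XFAD;Neu cKO replicates 1 to 5. In each group the libraries fell into a high set of 144 to 209 CPM and a low set of 58.2 to 79.4 CPM, with 3 high libraries in 5XFAD and 2 in 5XFAD;Neu cKO. The log2 fold change of -0.51 ± 0.19 (SE) was not past the threshold (edgeR, adjusted p = 0.429). It was -0.32 without 5XFAD replicate 2 and -0.70 without 5XFAD;Neu cKO replicate 1. Of the 5 high libraries, 2 had their reads on mt-Nd3 and 3 on Gm28438.

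The P-stalk, a flexible arm of the 60S subunit that recruits the translation factors, is formed by Rplp0, Rplp1 and Rplp2. Rplp1, the most counted member of all, was at 1110, 1150, 954, 928 and 935 CPM in 5XFAD replicates and at 909, 921, 788, 836 and 763 CPM in 5XFAD;Neu cKO replicates, without overlap. Its log2 fold change was -0.27 ± 0.074 (SE), with an adjusted p of 0.129 with edgeR and 0.0326 with DESeq2. Rplp2 was at 275 ± 33 and 247 ± 12 CPM (SD, n = 5), a log2 fold change of -0.16 (edgeR, adjusted p = 0.675). Rplp0, the base of the stalk, was at 86.8 ± 16.6 and 80.2 ± 12.5 CPM, a log2 fold change of -0.11 (edgeR, adjusted p = 0.909). The 3 stalk genes thus spanned a wide range of levels, and each had a log2 fold change below 0.

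The 17 members with a log2 fold change above 0 did not pass the threshold. Rpl15 had the highest value among genes with a mean of 10 CPM or more, with 20.7, 11.7, 17.5, 25.9 and 13.9 CPM in 5XFAD replicates and 26.7, 22.8, 25.1, 21.4 and 30.6 CPM in 5XFAD;Neu cKO replicates. Its groups overlapped, with 5XFAD replicate 4 above 3 of the 5XFAD;Neu cKO libraries, and the log2 fold change was 0.49 ± 0.19 (SE, edgeR, adjusted p = 0.453). Rpl19 and Rpl17 had log2 fold changes of 0.20 and 0.19 (edgeR, adjusted p = 0.775 and 0.728). Rpl7a was at 62.1 ± 14.7 and 68.2 ± 7.07 CPM (SD, n = 5), a log2 fold change of 0.13. Rpl13a, which also acts in a complex that silences inflammatory mRNAs, was at 30.3 ± 7.23 and 31.9 ± 8.61 CPM, a log2 fold change of 0.06 (edgeR, adjusted p = 0.981).

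Some members are paralogs of a main gene. Rps4l had the highest log2 fold change of all members, 0.81 ± 0.38 (SE, edgeR, adjusted p = 0.594), at 2.8 to 6.1 CPM in 5XFAD and 1.85 to 12.3 CPM in 5XFAD;Neu cKO libraries, while Rps4x, its main gene, had 0.03. Rpl7l1 was at 18.9 ± 5.29 and 22.1 ± 4.25 CPM with a log2 fold change of 0.22, against -0.14 for Rpl7. Rpl22l1 had -0.09 and Rpl22 -0.18, Rpl36al 0.18 and Rpl36a -0.17, and Rps27l -0.28 and Rps27 0.00. None of these paralogs and main genes passed the threshold, and the differences between paralog and main gene were not tested. The main genes Rpl3, Rpl10 and Rpl39 had log2 fold changes of -0.02, -0.08 and -0.16, and their paralogs Rpl3l, Rpl10l and Rpl39l were the 3 members under the count filter.

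Members with higher levels had lower medians. When members were ordered by mean level, the lowest 28 genes (1.49 to 79.0 CPM) had a median log2 fold change of -0.02 with 15 below 0. The next 27 genes (80.0 to 174 CPM) had -0.15 with 25 below 0. The highest 27 genes (175 to 930 CPM) had -0.19 with 25 below 0 and held 16 of the 22 lower members with an unadjusted p under 0.05. Their median standard error was 0.087, against 0.15 for the lowest 28 genes. A small p needs a smaller change where the standard error is lower. The 8841 genes tested with a mean of 10 CPM or more had a median of 0.00. Of these genes, 493 were lower with an unadjusted p under 0.05. Counted levels spanned a 623-fold range among members. The 5 most counted members held 29.05% of the reads of all 82, and Rpl24, the least counted, was at 1.57 ± 0.609 CPM in 5XFAD and 1.41 ± 1.42 CPM in 5XFAD;Neu cKO libraries (SD, n = 5), with no read in 5XFAD;Neu cKO replicate 2.

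**Figure D4:**
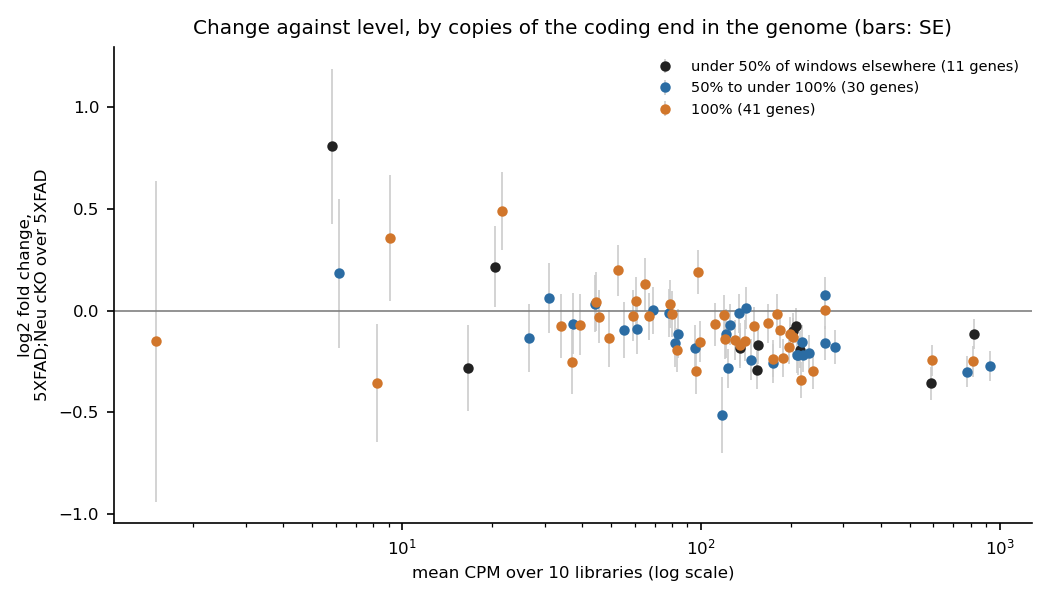
Log2 fold change with its standard error (y axis) against the mean CPM over 10 libraries (x axis, log scale) of each ribosomal protein gene, coloured by the share of its coding-end windows found elsewhere in the genome. Points fall below 0 mainly at high levels, and each colour is spread over both low and high levels.

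Copies elsewhere in the genome may bear on the levels given here. The last 250 coding bases of each gene were searched in GRCm39 in windows of 50 bases, and the sequence after the coding end was not searched. At least 50% of the windows had an identical copy outside the gene for 71 of the 82 members (86.6%), and all windows had one for 41 members, against at least 50% of the windows for 4.78% of the 14663 protein-coding genes searched. The median log2 fold change was -0.17 for the 11 members with fewer than 50% of their windows elsewhere, -0.15 for the 30 with 50% to under 100%, and -0.10 for the 41 with all windows elsewhere. The median of the mean levels was 155, 124 and 99.2 CPM in the same order. Reads of the 317 genes annotated as pseudogenes of the family numbered 4646 in all, against 774979 on members, and adding them to the members left the median at -0.12. Alignments of reads with several places, which the counting set aside, numbered 3.10 to 3.98 for every counted read in 5XFAD libraries. In 5XFAD;Neu cKO libraries they numbered 2.76 to 3.34, and their part in the members' levels was not tested. Members have short coding sequences, with a median of 454.5 bases against 1356 for the protein-coding genes searched.

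Fau and Rack1, which encode ribosomal proteins but carry other symbols, also had log2 fold changes below 0. Fau, which encodes the 40S protein eS30 fused to a ubiquitin-like protein, was at 122, 122, 93.7, 93.0 and 88.7 CPM in 5XFAD replicates and at 75.7, 89.6, 76.1, 84.1 and 78.6 CPM in 5XFAD;Neu cKO replicates. Its log2 fold change was -0.36 ± 0.11 (SE, edgeR, adjusted p = 0.231), and 1 library of 5XFAD;Neu cKO reached the 5XFAD range. Rack1, a scaffold protein of the 40S subunit, was at 125 ± 11.7 and 107 ± 7.37 CPM (SD, n = 5), a log2 fold change of -0.22 (edgeR, adjusted p = 0.544). Neither passed the threshold.

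Lists of other translation genes had medians near that of all genes. The 37 initiation factors had a median log2 fold change of -0.01, with 20 below 0, and the 9 elongation and termination factors one of -0.03, with 6 below 0. Eef1g, a subunit of the complex that reloads Eef1a, had the lowest value of the latter, -0.25 (edgeR, adjusted p = 0.543), and Eif4a2, an RNA helicase of initiation, the highest of the former, 0.51 (edgeR, adjusted p = 0.267). The 19 other mRNAs of the TOP class, Fau and Rack1 among them, had a median of -0.04 with 13 below 0. The 30 ribosome biogenesis genes had a median of -0.03 with 16 below 0, and the 12 genes of mTORC1 and TOP control 0.05 with 3 below 0. None of the genes in these 5 lists passed the threshold. The 77 mitochondrial ribosomal protein genes tested, which build the ribosome of another compartment, had a median of -0.01 with 42 below 0 and none past the threshold. Outside translation, the 84 nuclear-encoded respiratory chain genes tested had a median of -0.06 with 52 below 0. The 38 proteasome subunit genes tested had 0.01 with 18 below 0, and no gene of either list passed the threshold.

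**Figure D5:**
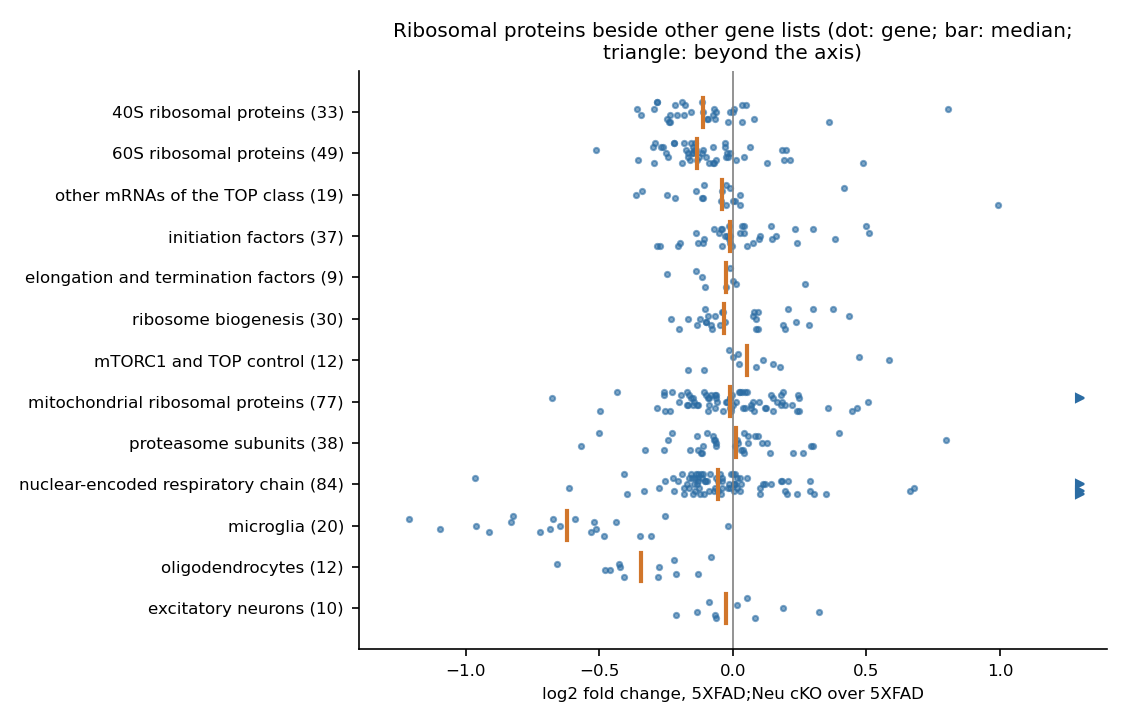
Log2 fold change (x axis, 5XFAD;Neu cKO over 5XFAD) of each gene (dots) in the ribosomal protein genes and 11 other lists, with the median of each list as an orange bar and the number of genes in brackets. The 40S and 60S medians, -0.11 and -0.13, lie left of those of the translation factor lists, and the microglia median, -0.62, lies farthest left.

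The spread between libraries of one group was also small among members. The SD of log2 CPM within groups had a median of 0.188 over the 82 members, from 0.0889 for Rpl9 to 1.06 for Rpl24. It was 0.237 over all 8841 genes tested with a mean of 10 CPM or more, a group that holds 77 of the members. The median level of the members was 122 CPM, and these sets were not matched for level. The member median of -0.12 compares with an SD between libraries of 0.12 in the median deviation of the 82 members, so the shift was about as large as the spread between libraries.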

How the data were processed

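Per the labels and the study's methods, the authors trimmed QuantSeq 3′ reads, aligned them with STAR 2.7.3a to GRCm39 and counted them per Ensembl gene with HTSeq. The submitters' processing notes give HTSeq version 0.9.1, whereas the study's methods name another version. The deposited values are these raw counts. The strand setting is not given in the sources used here, so reads of antisense or overlapping genes cannot be told apart. Summary rows of the counting, such as reads on no gene (31.3% to 39.9% per library), were left out of library sizes and tests.

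Groups were tested with edgeR 4.0.16 under R 4.3.3 (quasi-likelihood test, TMM, group as the only term) over the 19268 genes with a total over 10. P-values were adjusted after Benjamini and Hochberg over all of these genes, with a threshold of 0.05. CPM were scaled with TMM. Alternatives were DESeq2 1.42.0, its size factors, total counts, 4 other filters or fits, the replicate block, each library left out, mt-Nd3 reads as a term, pseudogene counts added, and members with a mean of 10 CPM or more; members with under 50% of their windows elsewhere were added after seeing the data. The fit was tested on simulated counts. Symbols, found for 52610 identifiers, were taken from GENCODE on GRCm39.

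Members named are those past the threshold, the 10 smallest p, the 5 largest rises and falls with a mean of 10 CPM or more, the extremes of level, paralogs and their main genes, the P-stalk, Rpsa, Rps6, Rpl5, Rpl11, Rpl13a and those the study lists; Rpl9 was named after its values were seen. Some genes are not reported here. The members and the other lists were chosen with earlier results of these data known, and those the study lists were chosen on these samples.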

Additional observations from a re-analysis of the deposited data

Results flagged for a closer look

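Among 78 groups of 5 libraries, over 36 named members and 3 summed levels, 1 held a library far from the others, and chance alone gives about 1 in 20 groups. Rpl5 was at 32.8 CPM in 5XFAD replicate 5 against 51.3 to 59.4 CPM in the other 4 libraries of the group, a gap of 0.753 of the group's range on the log2 scale, above the critical value of 0.71. The same library had the lowest summed level of members in its group, 12640 CPM.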

How the results depend on the processing

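The number of members called, 1 in the main comparison, was 5 with DESeq2, 0 with total counts, 0 with filterByExpr, 4 with no filter on low counts, 4 with the robust fit, 2 with mt-Nd3 reads as a term and 0 to 2 without single libraries. The number of all genes called, 42, was 73 with DESeq2, 52 with total counts, 32 with filterByExpr, 103 with no filter and 91 with mt-Nd3 reads as a term. Without single libraries it was 26 to 72. The genes tested numbered 13782 with filterByExpr and 24900 with no filter. The number of all genes called under the robust fit is not given here, so its 4 members have no share beside them. With the replicate number as a block, 112 genes were called, of which 5 were members. Over genes with a mean of 10 CPM or more, deviations of same-numbered libraries had correlations of -0.0782 to 0.0536. No same-numbered pair was the best match of both its libraries. In both groups, however, replicates 1 and 2 had the highest summed levels of members and replicate 5 the lowest. Correlations over all these genes cannot decide whether the members share an order by replicate number, which was not tested. The member median kept its sign in every alternative, from -0.17 to -0.03, and -0.17 to -0.07 without single libraries (40S -0.16 to -0.07, 60S -0.17 to -0.07). Single members with values near 0 changed sign. With total counts Rpl10 was at 0.0204 and Rpl3 at 0.0806, and with mt-Nd3 reads as a term Rpl22l1 was at 0.0591. Without single libraries the log2 fold change ranged from -0.1575 to 0.098 for Rpl10, -0.0525 to 0.1719 for Rpl13a, -0.7174 to 0.1601 for Rpl24, -0.1022 to 0.0615 for Rpl3, -0.0664 to 0.4101 for Rpl36al, -0.0862 to 0.0769 for Rps27 and -0.0529 to 0.098 for Rps4x. None of these members passed the threshold in any of these fits. Rpl26 passed the threshold with no filter on low counts and with the block (edgeR, adjusted p = 0.000263 and 0.000735); the cause was not tested. Over all named members, 674 of the alternative values kept direction and side of the threshold, 18 newly passed it and 6 lost it.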
